A study of Mus musculus with 11 samples.

Results

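The 383 CpG islands described here were partially methylated in the pancreas of newborn control mice, that is, neither nearly free of methylation nor nearly fully methylated. They were chosen by their measured level: the mean methylation over the control mice lay from 20% to 80%, each control mouse had a coverage of at least 20, and all 11 mice had reads. The series lists 14841 islands, of which 14428 are autosomal, 13203 of these had reads in all mice and 12280 also reached that coverage. Of the 12280, 11517 islands lay under 20% and 380 over 80%, so that 3.12% were partially methylated.

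DNA was taken from whole pancreas of C57BL/6N wild-type mice at postnatal day 0. The 6 control mice (3 females and 3 males) came from dams injected with saline, and the 5 amphetamine mice (3 females and 2 males) from dams injected with 10 mg/kg amphetamine, on embryonic days E14.5, E15.5 and E16.5 in both groups. The sources used here do not say which pups shared a dam, and pancreas at this age is a mix of acinar, duct, endocrine, blood and supporting cells, which limits what a mean level says about any one of them. The assay was RRBS, reduced representation bisulfite sequencing. MspI and TaqI cut the DNA at sites that hold a CpG, and bisulfite then converts unmethylated cytosines only, so that each read shows which CpGs were methylated. The values are the authors' group means, SDs and lowest and highest values over mice, and no value per mouse enters below. Coverage is not scaled for depth and was 1.25 times higher in amphetamine than in control mice over the 12280 islands.

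CpG islands are short stretches rich in CG dinucleotides, many of them at gene promoters, and most stay unmethylated in all tissues. Partial methylation can arise in different ways: at imprinted loci one parental allele is methylated and the other is not, while elsewhere the cells of a tissue can differ from each other, or the DNA copies of a repeated sequence can differ. A mean over cells and copies cannot tell these apart. Imprinted regions that gain their methylation in the egg or sperm keep it in the embryo with the help of ZFP57, a zinc finger protein that binds the hexamer TGCCGC when its CpG is methylated.

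Of the 383 islands, 18 lay within 5000 bp of a gene on a list of imprinted genes, 13 of them at genes of imprinting control regions and 5 at other imprinted genes. To show the ZFP57 hexamer in its setting at such loci, stretches of 200 bases from 6 of these islands are given 5′ to 3′ on the plus strand of GRCm38 (the assembly also called mm10), with the hexamer in either orientation (TGCCGC or GCGGCA) in capitals. They were picked as stretches with 3 or more hexamers, outside annotated UTRs. The stretches come from the promoter of Mcts2 inside H13 (chr2:152686810-152687009), an exon of Gnas (chr2:174299353-174299552), Kcnq1ot1 inside Kcnq1 (chr7:143295547-143295746), Plagl1 (chr10:13091058-13091257), Peg13 inside Trappc9 (chr15:72809858-72810057) and Airn inside Igf2r (chr17:12742185-12742384).
Mcts2: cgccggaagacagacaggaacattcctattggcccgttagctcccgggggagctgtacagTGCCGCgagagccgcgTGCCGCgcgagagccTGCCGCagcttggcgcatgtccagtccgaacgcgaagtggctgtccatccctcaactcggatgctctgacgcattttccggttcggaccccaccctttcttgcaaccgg
Gnas exon: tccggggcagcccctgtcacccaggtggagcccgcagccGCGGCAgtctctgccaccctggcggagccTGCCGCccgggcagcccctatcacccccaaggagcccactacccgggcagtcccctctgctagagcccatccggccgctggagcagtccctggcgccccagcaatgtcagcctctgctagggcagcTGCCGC
Kcnq1ot1: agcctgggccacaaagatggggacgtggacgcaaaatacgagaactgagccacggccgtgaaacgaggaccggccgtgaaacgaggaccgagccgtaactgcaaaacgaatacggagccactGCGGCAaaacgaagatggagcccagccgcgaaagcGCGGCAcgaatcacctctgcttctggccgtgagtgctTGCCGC
Plagl1: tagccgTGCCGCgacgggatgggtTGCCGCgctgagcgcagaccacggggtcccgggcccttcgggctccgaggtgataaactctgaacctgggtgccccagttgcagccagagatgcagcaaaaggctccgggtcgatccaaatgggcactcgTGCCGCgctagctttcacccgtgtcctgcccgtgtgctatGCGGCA
Peg13: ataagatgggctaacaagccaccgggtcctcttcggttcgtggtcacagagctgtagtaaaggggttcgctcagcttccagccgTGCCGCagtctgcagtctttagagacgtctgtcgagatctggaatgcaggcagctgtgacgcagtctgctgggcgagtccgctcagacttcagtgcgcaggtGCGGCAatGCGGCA
Airn: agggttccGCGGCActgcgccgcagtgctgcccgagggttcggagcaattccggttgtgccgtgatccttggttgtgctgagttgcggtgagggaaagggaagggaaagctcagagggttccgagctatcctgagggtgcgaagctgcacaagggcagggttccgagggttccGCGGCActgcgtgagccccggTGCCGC

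The hexamer occurred in 14 of the 18 islands at imprinted loci (77.8%), in 159 of the 365 others (43.6%) and in 6529 of all 12280 covered islands (53.2%). Islands at imprinted loci were longer (median 755 bp against 421 bp), so counts per length are given too. Per kilobase there were 3.15 hexamers at imprinted loci, 1.19 in the other partially methylated islands and 1.28 in all covered islands. Cut into stretches of 200 bases, 26 of 67 at imprinted loci (38.8%), 168 of 832 in the others (20.2%) and 21.8% over all covered islands held at least 1. These are counts of letters on both strands and say nothing of binding.

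At the 13 islands within 5000 bp of genes of imprinting control regions, control means ran from 36.1% to 65.9%, with a median of 54.5%. The amphetamine median was 54.0%. Of the 26 covered islands near genes of that list, 12 lay under 20% and 1 over 80%. Nearness to a listed gene does not show that an island is itself a control region. The island in a Gnas exon (chr2:174298464-174300644), within 5000 bp of Nespas at the stimulatory G protein locus, had the smallest span over mice of the 18, 22.7 percentage points. Its control mean was 56.3% with an SD of 6.68 (n = 6, 49.1% to 64.5%), and its amphetamine mean was 55.5% with an SD of 8.78 (n = 5, 42.7% to 65.4%). The second island of that locus (chr2:174284648-174285390), which overlaps both Gnas and Nespas, stood at 65.9% in controls (31.8% to 89.5%) and 54.0% in amphetamine mice (31.5% to 91.1%). The groups overlapped at both.

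Maternally methylated regions of paternally expressed genes lay near the middle of the scale. Peg3 and Usp29 share a promoter island (chr7:6730063-6730398) that had a control mean of 58.4% (47.1% to 75%) and an amphetamine mean of 50.1% (37.7% to 78.1%). The lowest control coverage of this island was 24. Kcnq1ot1, a long RNA that silences its neighbours, had 53.7% (26.4% to 77.7%) and 48.7% (37.6% to 76.5%). At Zrsr1 inside Commd1 (chr11:22971975-22972993) the means were 44.8% (29.2% to 68.3%) and 40.1% (34.0% to 48.6%). Mcts2 inside H13 had 56.0% (41.5% to 81.1%) and 55.5% (44.1% to 74.9%). In each of these 4 the groups overlapped.

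Other imprinted islands were also near the middle on average, with spans over the 11 mice from 46.1 points at Grb10 to 83.3 at Peg10. Plagl1, a zinc finger growth regulator, averaged 57.1% in controls with single mice from 24.2% to 89.2%, and 57.8% in amphetamine mice (43.8% to 76.7%). Peg10 and Sgce, which share a promoter (chr6:4747292-4748412), averaged 54.5% and ran from 16.7% to 100% in controls, with an SD of 35.9, and averaged 58.5% (18.3% to 86.8%) in amphetamine mice. The lowest control coverage of this island was 41. Peg13 inside Trappc9 averaged 53.3% (11.1% to 79.2%) and 53.8% (34.7% to 70.6%). Nap1l5 inside Herc3 averaged 36.1% (9.89% to 57.8%) and 43.4% (0% to 68.4%). Grb10, an adaptor that limits insulin and growth factor signalling, averaged 58.6% (40.4% to 86.5%) and 55.9% (49.3% to 69.4%).

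The Igf2r gene, whose receptor clears IGF2, carried 2 of the islands. The one at the promoter of Airn, the antisense RNA that silences Igf2r, had a control mean of 53.3% (23.0% to 74.0%) and an amphetamine mean of 67.9% (41.0% to 90.3%). The one at the Igf2r promoter (chr17:12769059-12770009) had 44.6% (12.5% to 66.5%) and 47.4% (20.9% to 70.9%). Both pairs of groups overlapped.

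The 5 islands at other imprinted genes were lower, with a control median of 25.2%. Begain (chr12:109033232-109034363) was the exception at 60.01% (45.1% to 70.5%) in controls and 64.5% (58.6% to 74.1%) in amphetamine mice. The promoter island of Cdkn1c, a brake on the cell cycle, had 22.7% (11.9% to 34.7%) and 31.8% (22.4% to 38.4%). A second island 3801 bp from that gene ran from 0% to 85.7% in controls at a lowest coverage of 20. Magel2 had 25.2% and 28.0%, and Mkrn3, in the same imprinted domain, 21.7% and 33.0%, with overlapping groups at both.

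**Figure D1:**
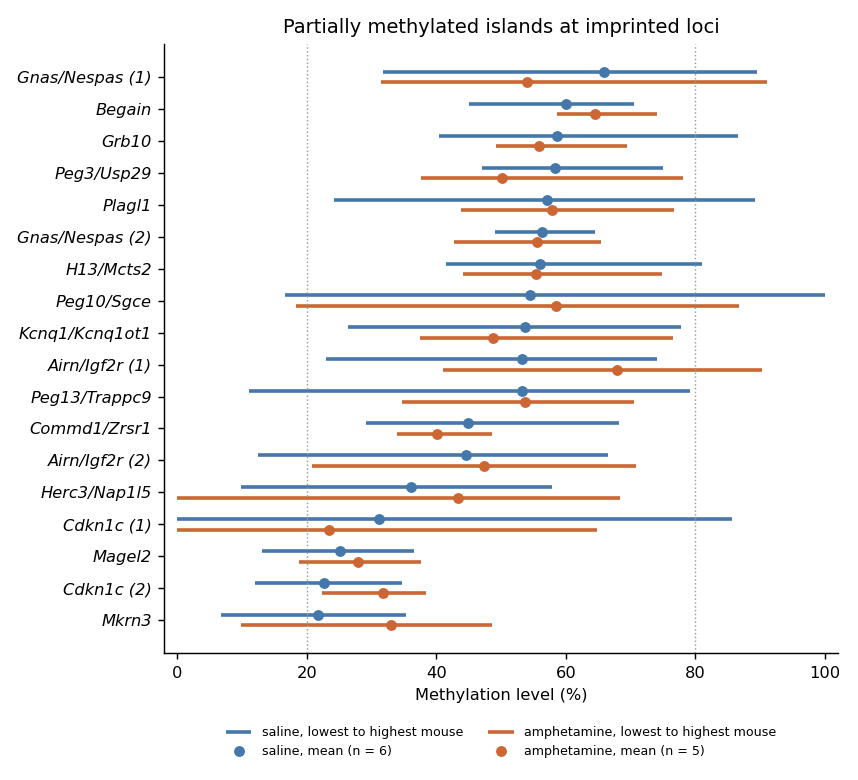
Methylation level (%) of the 18 partially methylated islands at imprinted loci, with the mean (point) and the lowest to highest mouse (line) of 6 saline and 5 amphetamine mice; names are the listed genes within 5000 bp, numbers in brackets part islands of 1 locus and dotted lines mark 20% and 80%. The points of 13 islands near genes of imprinting control regions sit between 36.1% and 65.9% in controls. The longest control lines are those of the Cdkn1c island outside the gene (0% to 85.7%) and of Peg10 (16.7% to 100%).

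All 18 islands also had an amphetamine mean from 20% to 80%, but 5 of 18 (27.8%) stayed within those bounds in every mouse, namely that in the Gnas exon and those of Peg3, Kcnq1ot1, Zrsr1 and Begain. The median SD over control mice was 18.2 percentage points at imprinted loci and 13.7 at the other 365 islands, and 15.7 against 10.7 in amphetamine mice. Within the imprinted loci, the median SD over control mice was 20.2 at the 13 islands near genes of imprinting control regions. At the 5 near other imprinted genes it was 9.81. The median lowest control coverage was 160.5 at imprinted loci and 98 elsewhere. The median control mean was 53.5% at imprinted loci and 44.8% elsewhere, and over all 383 islands the median SD was 15.6 for means of 30% to 70% against 11.5 for means of 20% to 30%. The part of level and coverage in the spread at imprinted loci was not tested. No island at an imprinted locus had a near-identical copy elsewhere in the genome.

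Not every imprinted locus appears among the members. Of 60 covered islands near listed imprinted genes, 40 lay under 20%, such as the promoters of Igf2 at 1.54% and Rasgrf1 at 2.46%, and 2 lay over 80%, Fkbp6 at 81.8% and the island of Zim3 at 91.2%. A further 6 autosomal islands near such genes missed the coverage minimum, among them that of Nnat and Blcap at 55.7% with a lowest coverage of 10. Another 11 lacked reads in at least 1 mouse. The listed genes H19, Meg3, Mest, Slc38a4, Snrpn and Snurf had no autosomal island within 5000 bp in the deposited table.

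Among all 383 islands the control median was 45.5% and the amphetamine median 47.9%, with a median SD of 13.7 percentage points over control mice and 10.7 over amphetamine mice. The median SDs over control and amphetamine mice were 1.77 and 1.57 in islands under 20%, and 6.41 and 5.19 in islands over 80%. A mean near 0% or 100% leaves less room for an SD, so the classes are not comparable in spread alone. From the lowest to the highest of the 11 mice the median span was 41.9 percentage points, 135 islands spanned over 50, 38 reached 0% in some mouse and 22 reached 100%. In every mouse, 74 of the 383 (19.3%) lay from 20% to 80%.

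Spread went with coverage. With the islands parted by their lowest control coverage, the median SD over control mice was 17.1 at a coverage of 20 to 67, and 13 of 130 such islands stayed within 20% to 80% in every mouse. At 68 to 164 these were 13.9 and 20 of 125, and at 165 to 5186 they were 9.69 and 41 of 128. Over the 383 islands the SD and the lowest coverage of the controls had a Spearman correlation of -0.48, and the SDs of the 2 treatment groups one of 0.55. Both are descriptions across islands of the same 11 libraries.

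**Figure D2:**
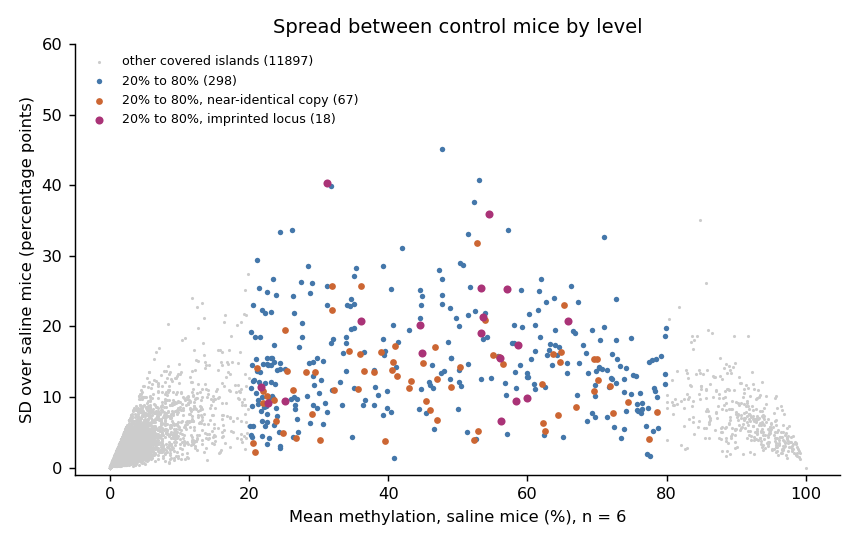
SD over 6 saline mice (percentage points) against their mean methylation (%) for all 12280 covered islands, with the partially methylated islands coloured by imprinted locus, near-identical copy or neither. Imprinted islands had a median SD of 18.2. It was 20.2 at the 13 near genes of imprinting control regions and 9.81 at the 5 near other imprinted genes. The SDs of the other partially methylated islands ran from 1.39 to 45.2.

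Among the steadiest islands with a gene nearby, by the span over all 11 mice, were those at Lrsam1 and Rpl12 (7.50 points), Rbm46 (10.4), Gm20486 (10.7), Gdf1 and Cers1 (11.2) and Rpl28 (11.3). Control means of 4 of these, all but Gdf1, lay from 20.3% to 24.5%. The promoter island of Rbm46, a germ cell RNA-binding protein, had a control mean of 24.5% with an SD of 3.03 (n = 6, 19.8% to 29.1%) and an amphetamine mean of 24.6% with an SD of 4.06 (n = 5, 18.6% to 29.0%). At Gdf1, a TGF-beta family ligand that shares its transcript with the ceramide synthase Cers1, the means were 73.4% (70.03% to 81.2%) and 75.6% (70.8% to 80.9%).

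To show an island from the other end of the scale of spread, the first 200 bases of the one in an exon of the zinc finger gene Zscan10 are given on the plus strand of GRCm38, at chr17:23610340-23610539. They are in lower case throughout because they do not hold the hexamer, and 61.2% of letters were the same at a shift of 84 bases.
Zscan10 exon: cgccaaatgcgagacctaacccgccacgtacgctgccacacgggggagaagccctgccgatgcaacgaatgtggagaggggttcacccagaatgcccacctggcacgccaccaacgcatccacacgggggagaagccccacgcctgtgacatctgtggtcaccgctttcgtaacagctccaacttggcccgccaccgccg

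The widest islands with a gene nearby were in exons of Zscan10, Wdfy3, Shank3, Ebi3 and Ctnna3 and an intron of Dysf, with spans from 92.4 to 100 points. At Wdfy3, a scaffold protein of autophagy, single mice ran from 0% to 100% in both groups, at a lowest control coverage of 20. At Zscan10, a transcription factor of pluripotent cells, controls averaged 47.7% with an SD of 45.2 and ran from 0% to 97.9%, while amphetamine mice averaged 91.9% (66.6% to 100%). That island had a lowest coverage of 24 in controls and 4 in amphetamine mice. At Dysf, a membrane repair protein of muscle, controls averaged 52.3% (0% to 99.2%) and amphetamine mice 45.1% (0% to 84.6%). The lowest control coverages of the 6 islands ran from 20 to 98, and the part of coverage in these spans was not tested.

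**Figure D3:**
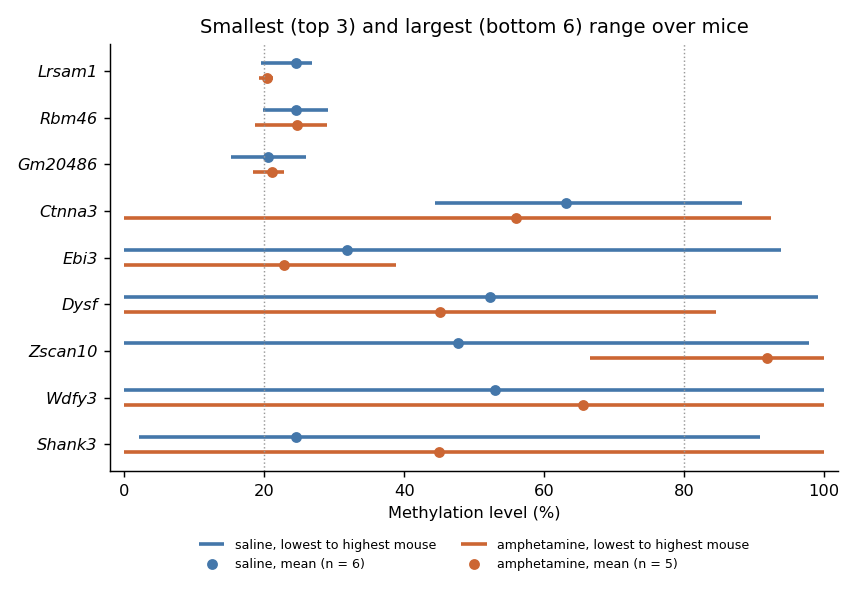
Methylation level (%) of the 3 islands with the smallest and the 6 with the largest span over mice, among those with a gene within 5000 bp and not at an imprinted locus, with the mean (point) and the lowest to highest mouse (line) of 6 saline and 5 amphetamine mice. Rbm46 stays between 18.6% and 29.1% in all mice, whereas Wdfy3 runs from 0% to 100% in both groups.

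Partially methylated islands differed from unmethylated ones in place. Of the 383, 157 (41.0%) touched a promoter, 194 (50.7%) an exon, 13 an intron and 19 lay between genes. Promoters were taken as 1500 bp before to 500 bp after the start of each annotated gene, 1 start per gene. Islands at other transcript starts inside a gene were thus not counted as promoter islands. Among islands under 20%, 80.6% touched a promoter and 13.4% an exon, and among islands over 80%, 21.3% and 73.4%. A promoter of a protein-coding gene was touched by 82 of the 383 (21.4%), 75.3% of the islands under 20% and 9.74% of those over 80%. Each island was assigned 1 gene, within 5000 bp a protein-coding one before any other and then the nearest. Of the 383, 350 overlapped the assigned gene, 19 lay within 5000 bp of it and 14 had no gene within 5000 bp. Some of the 19 overlapped a gene that is not protein-coding. The assigned genes numbered 369, of which 13 carried more than 1 of the islands, and 27 islands in all lay at these 13. Shank3, a scaffold of excitatory synapses, carried 3.

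They were also intermediate in size and CpG content. The median length was 426 bp, against 637 bp under 20% and 297 bp over 80%. The median number of CpGs was 39, against 66 and 25, and the median number of MspI and TaqI sites was 5, against 9 and 4. Median control coverage was 213, against 321.8 and 158.3, and the part of coverage in these differences was not tested.

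Beyond the islands, the medians of the 3 classes lay closer together than at the islands. In 5000 bp tiles with the same coverage and no overlap with the island, the median control methylation 5 kb upstream in genome order was 69.3% beside the partially methylated islands, 68.8% beside those under 20% and 78.4% beside those over 80%. At 20 kb it was 72.3%, 75.6% and 72.8%. The tile at the island itself had 48.5%, 4.81% and 89.5%, which restates the choice of islands.

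**Figure D4:**
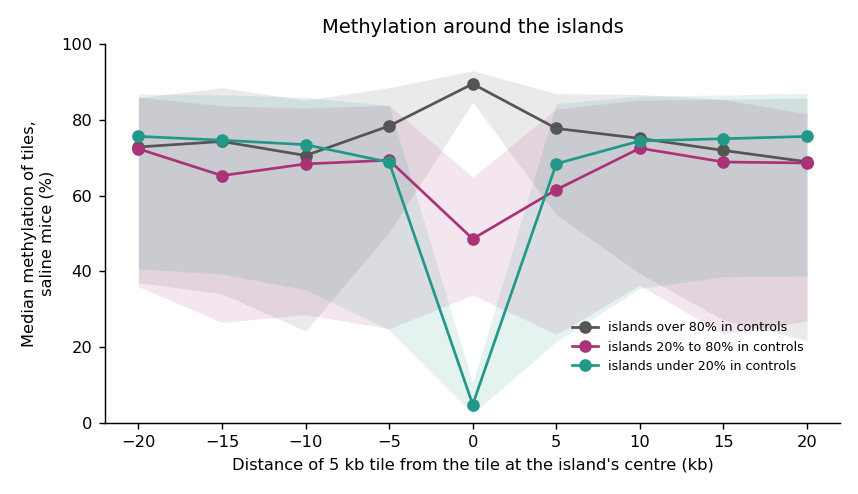
Median methylation (%) over saline mice of 5 kb tiles against their distance (kb) from the tile at the island's centre, for islands over 80%, 20% to 80% and under 20% in controls; shading is the quartile range over tiles. The lines part at the island and lie between 61.5% and 78.4% in the tiles next to it.

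Duplicated sequence was common among the partially methylated islands. A copy elsewhere in the genome, with at least 95% identity over at least 50% of the island, was found for 67 of 383 (17.5%), against 2.58% of the islands under 20% and 9.74% of those over 80%. Reads of 50 bases cannot always be placed on the right copy, so levels of these islands are uncertain: a value may mix several places. For 16 of the 67 the best copy was identical over the aligned length. A processed pseudogene, an intronless copy of a gene's RNA inserted elsewhere, was overlapped by 51 of the 383 (13.3%), 0.590% of the islands under 20% and 7.89% of those over 80%. Of the 51, 36 had a near-identical copy.

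For 54 of the 67 the best copy lay on another covered island. In 39 of these the copy was itself partially methylated, in 15 it lay under 20% and in 0 over 80%. Cdv3-ps had a control mean of 26.3% and its copy at Cdv3 4.12%. Sap18b had 40.6% and its copy at Sap18, a gene for a subunit of a histone deacetylase complex, 16.3%, with identity over 124 of 215 bp. The island at Gm7318 had 64.7% and its copy, nearest to the vesicle cargo receptor gene Tmed2, 9.13%. These examples were chosen after their values were seen.

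Copies that were both partially methylated made 24 distinct pairs, and their control means differed by a median of 7.84 percentage points (0.679 to 49.0). Islands over the ferritin light chain retrocopies Ftl2-ps near Grik3 and Ftl1-ps1, which were identical over the aligned length, had 62.2% and 64.4%. Gm10273 and the Gm10233 retrocopy near Adam2, also identical over the aligned length, had 55.02% and 55.9%. Oxct2a and Oxct2b, a pair of testis ketone body enzymes with 98.4% identity, had 36.6% and 43.0%. Whether close levels come from the loci or from shared reads was not tested.

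The longest run of copies was on chromosome 4. There, 9 partially methylated islands lay less than 1 Mb apart between 145640285 and 148068522 bp, among 25 covered islands, and 9 of 9 had a near-identical copy. The island 4460 bp from the zinc finger gene Zfp992 and that of Gm13238 shared 98.5% identity and had control means of 52.3% (48.7% to 59.8%) and 53.0%, at lowest coverages of 2610 and 3148. The 9 islands had a median SD of 5.21 over control mice, and 7 of 9 stayed within 20% to 80% in every mouse. Their 9 amphetamine means were higher than the control means, by a median of 4.50 points. For 8 of the 9 the best copy lay in the same run, so they are not separate observations, and for Chchd2-ps it lay on chromosome 5.

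Genes of the germ line supplied 8 of the islands. Promoter islands of such genes are a known class that gains methylation in the body's cells after implantation. Of 40 covered islands near listed germline genes, 8 (20.0%) were partially methylated, 19 lay under 20% and 13 over 80%. The control means were 79.7% at Majin, 69.7% at Tdrd1, 67.4% at Ddx4, 61.0% at Meioc, 58.3% at Rnf17, 47.5% near Stag3, 34.8% at Dazl and 21.4% at Smc1b. Meioc, a regulator of meiotic entry, stayed between 50.5% and 78.4% in all mice, and the island in an exon of Gpc2, within 5000 bp of the meiotic cohesin gene Stag3, between 22.8% and 62.7%. Ddx4, the germ cell RNA helicase, averaged 67.4% in controls and 81.8% in amphetamine mice, past the upper bound. The amphetamine mean was higher at 7 of the 8, by a median of 8.36 points over the 8. It was higher at 214 of all 383 islands and at 6050 of the 12280 covered ones. At Majin the difference was 0.849 points, at a lowest amphetamine coverage of 8. The 8 islands share the same mice and were chosen by control means, and limma called 0 of the 383 for treatment.

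Few islands near transcription factor genes of the pancreas were partially methylated, at a share close to that over all covered islands (3.12%). Of 78 covered islands near listed genes, 76 lay under 20%, 0 over 80% and 2 (2.56%) were partially methylated. In an exon of Bhlha15, which encodes the acinar cell factor MIST1, the control mean was 47.8% (16.7% to 92.9%) and the amphetamine mean 44.6% (21.8% to 63.7%). In an intron of Gata4, a factor of early pancreas and of other organs, the means were 22.3% (0% to 56.3%) and 12.6% (3.13% to 25.6%). Other developmental genes were similar: 1 of 56 covered islands near Hox genes and 2 of 110 near forkhead, Sox and T-box genes were partially methylated. Near genes of serotonin and monoamine signalling the count was 0 of 14, and these 14 lay under 20%, as did 93.8% of all covered islands.

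Zinc finger genes of the Zfp type had 11 partially methylated islands of 259 covered (4.25%), beside 3.12% over all covered islands. Zfp385a had 49.8% (11.7% to 69.2%) in controls and Zfp444 47.3% (10.9% to 84.6%), both wide. Of 22 covered islands near genes of the methylation machinery, 1 was partially methylated. It lay in an exon of Zbtb45 and overlapped Trim28, the corepressor that ZFP57 recruits, at 68.6% with an SD of 6.63 (57.7% to 76.9%) in controls and 68.2% (52.9% to 78.1%) in amphetamine mice.

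Levels in the 2 treatment groups followed each other. Over the 383, control and amphetamine means had a Pearson correlation of 0.92 across islands, and 329 (85.9%) had an amphetamine mean from 20% to 80%. Of the 54 others, 30 lay under 20% and 24 over 80%. Of the 212 islands from 30% to 70% in controls, 207 stayed inside, against 84 of 112 from 20% to 30% and 38 of 59 from 70% to 80%. Just inside the lower bound were Chst8 at 20.1% and Mon1a at 20.2%, and just outside it Skint6 at 19.9% and Yjefn3 at 20.0%. Just inside the upper bound were Zbtb7a at 79.8% and Zfhx3 at 79.9%, and just outside it Tle2 and Camkk2, at 80.03% and 80.04%.

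By treatment, 214 of the 383 islands had the higher mean in amphetamine mice and 169 in controls, with a median difference of 1.31 percentage points against -0.01 over all covered islands. Because the control means chose the islands, this is a description. Rebuilt from the group means and SDs, limma called 0 of the 383 and 0 of all 13203 islands (0%) at an adjusted p-value under 0.05. At an unadjusted p-value under 0.05 it listed 27 of the 383 (7.05%), 24 higher and 3 lower in amphetamine mice, beside 4.07% of all islands (538, of which 332 were higher and 206 lower). With a variance trend, 17 were listed (4.44%), 15 higher and 2 lower, beside 4.02% of all islands.

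The ranges of the 2 groups lay apart, with amphetamine higher, at 2 islands, beside 0.326% of all 13203. With amphetamine lower they lay apart at 0, beside 0.121%. One was the promoter island of Dazl, a germ cell RNA-binding protein (chr17:50292685-50293791), at 34.8% with an SD of 4.34 (n = 6, 27.7% to 38.7%) in controls and 46.9% with an SD of 2.78 (n = 5, 42.7% to 49.6%) in amphetamine mice, at lowest coverages of 485 and 601 (adjusted p = 0.561, limma). The other was in an exon of Nod1, a sensor of bacterial peptidoglycan (chr6:54943915-54944335), at 48.1% (27.2% to 61.8%) and 77.8% (63.7% to 88.1%), with an adjusted p of 0.925 by limma. At both, the lowest amphetamine mouse was above the highest control. For its place at a promoter, 200 bases of the Dazl island (chr17:50292893-50293092, plus strand) are given with the 1 hexamer of that stretch in capitals.
Dazl promoter: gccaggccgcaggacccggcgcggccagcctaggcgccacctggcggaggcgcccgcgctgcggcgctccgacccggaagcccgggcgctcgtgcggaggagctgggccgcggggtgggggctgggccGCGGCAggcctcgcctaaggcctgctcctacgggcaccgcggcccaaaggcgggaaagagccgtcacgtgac

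Apart from Nod1, the named islands with the largest differences of means had overlapping groups and wide spread. Besides Zscan10 and Nod1, the largest rises in mean were at Lrp8, a reelin receptor, from 26.1% (0% to 90.8%) to 55.7% (24.0% to 91.6%), and at Brsk1, a neuronal kinase, from 47.8% (20% to 80%) to 77.4% (58.5% to 100%). Among the largest lower means were those at Gm7390, from 65.3% to 34.4%, at Zfp872, from 31.3% to 8.91%, and at Srrm4, a neuronal splicing factor, from 72.1% to 50.6%. The ranges of the groups overlapped in every one of these, Zscan10 included.

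By sex, which played no part in the choice of islands, the same 11 mice gave 6 females and 5 males. The 2 sexes had a Pearson correlation of 0.88 across the islands, and 193 had the higher mean in females and 190 in males. Differences of means ran from 37.3 points lower to 25.5 points higher in females. At an adjusted p-value under 0.05 limma called 0 of the 383 and 0 of all 13203 autosomal islands (0%). At an unadjusted p-value under 0.05 it listed 31 of the 383 (8.09%), 13 higher and 18 lower in females, beside 4.76% of all islands. With a variance trend it listed 14 (3.66%), beside 4.6% of all islands.

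The ranges of the sexes lay apart with females higher at 0 of the islands, beside 0.273% of all 13203, and with females lower at 2, beside 0.22%. One overlaps the retrocopy Ppp1r2-ps2 near Iqsec1 (chr6:90905568-90905844). Its mean was 13.7% in females (4.66% to 23.7%) and 51.0% in males (28.1% to 64.7%), with an adjusted p of 0.499 by limma. It had the minimum coverage of 20 in a control mouse and 3 near-identical copies, on chromosomes 9, 16 and 19. Once islands on X and Y were added to the limma fit, where many differ between the sexes, its adjusted p was 0.0284 and it was the 1 member called (0.261%), beside 163 of 13539 islands in all (1.2%). The other was in an exon of Exoc3l2, a gene related to the exocyst, at 28.8% in females (13.7% to 38.1%) and 57.0% in males (39.4% to 91.5%). Its adjusted p was 0.898 by limma in the autosomal fit, at a lowest control coverage of 45.

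Other islands with low p-values for sex had overlapping sexes. In females the mean was higher at Gata4 (28.5% against 5.30% in males) and at the Ftl2-ps retrocopy near Grik3 (65.9% against 53.5%). It was lower at Slc6a16 (20.8% against 48.1%) and at 1 of the Shank3 islands (25.1% against 49.4%). The adjusted p was 0.898 by limma at each of these 4.

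**Figure D5:**
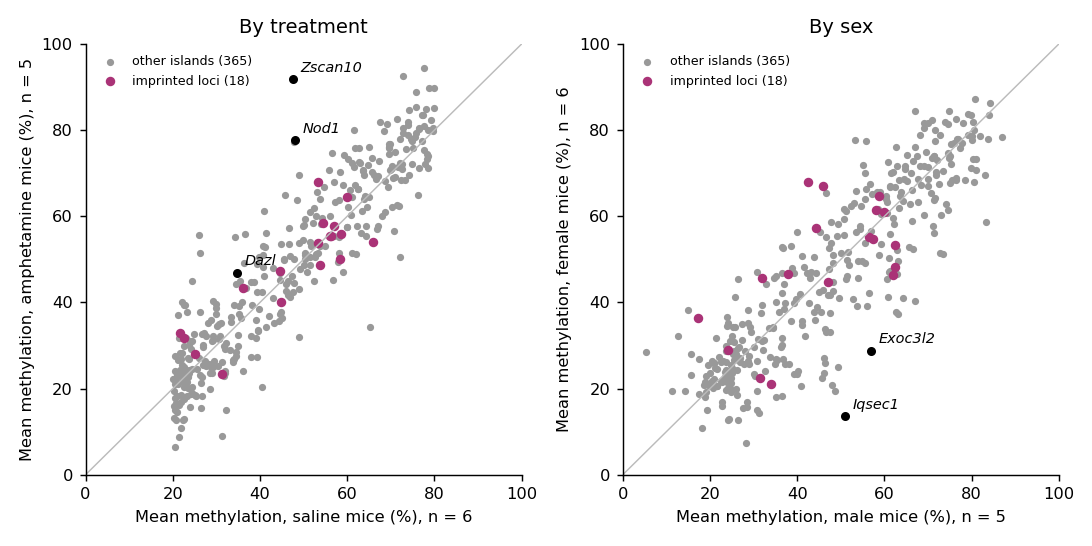
Mean methylation (%) of the 383 islands in amphetamine (n = 5) against saline (n = 6) mice and in female (n = 6) against male (n = 5) mice, with islands at imprinted loci in purple and 5 named islands in black. Points follow the line of equal means, and Dazl and Nod1 above it, Iqsec1 and Exoc3l2 below it are the 4 islands whose groups did not overlap.

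Of the 10 gene lists examined, clustered protocadherins had the highest share of partially methylated islands. They are cell surface proteins of which single neurons choose a few by promoter methylation. Of 14 covered islands in the family on chromosome 18, 10 (71.4%) were partially methylated, with a median control mean of 44.1% and a median SD of 14.1. The islands of Pcdhgb2, Pcdhgb5 and Pcdhgb1 lay in exons, 1631, 1631 and 1693 bp from the gene starts, and did not touch a promoter. Pcdhgb2 had 46.0% (36.9% to 56.8%) in controls and 44.3% (38.5% to 51.8%) in amphetamine mice. Pcdhgb5 had 45.0% (29.9% to 66.0%) and 36.5% (5.13% to 49.5%), and Pcdhgb1 43.2% (27.0% to 57.3%) and 35.3% (27.4% to 48.4%). The variable exons resemble each other, Pcdhgb1 and Pcdhgb2 with 98.4% identity, so their values are not independent of each other. Amphetamine means were higher at 4 and lower at 6 of the 10.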

How the data were processed

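RRBS libraries of pancreas from 6 saline and 5 amphetamine mice at postnatal day 0 were analysed. The authors aligned 50-base single-end reads to mm10 with Bismark and summarized CpGs per region with RnBeads. The authors deposited, per group, the mean methylation as a fraction (printed as a percent), the SD, lowest and highest value over mice, and the coverage, a signal not normalized for depth and read here as reads summed over the CpGs of an island. Its lowest control value bounds the precision of each island, and neither counts per CpG nor depth per mouse were used. The deposited differences, log2 quotients, p-values, adjusted p-values and ranks of the authors' own comparisons were not used. Gene, promoter and female against male tile tables were not used.

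Islands of the treatment and sex tables were joined by position, and their group means were checked against each other. All islands begin and end with CG in GRCm38, the assembly of mm10. Genes came from GENCODE vM21, and copies from megablast (BLAST+ 2.17.0, word size 32, soft masking). Moderated tests were rebuilt from group means, SDs and numbers of mice with limma 3.58.1 (R 4.3.3), with no covariate and Benjamini-Hochberg adjustment over 13203 islands. On simulated data for amphetamine against saline over 13203 islands, 200 islands were shifted by 4 SD. Of these, 93% were recovered and 100% had the right direction, and 7 unchanged islands were called. Smaller shifts were not tried, so no recovery rate is known for smaller differences. P-values measure the spread between these mice only. Pups were taken as independent, and shared litters could not be taken into account in the p-values or in the ranges of the groups. Members and gene lists were chosen with earlier results of these data known.

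Named islands were all at imprinted loci, the 6 smallest and 6 largest spans among others with a gene within 5000 bp, 4 rises and 4 falls by treatment (by difference of means, since fewer than 4 had groups apart), 3 higher and 3 lower in females by p-value, up to 3 per other list closest to 50%, and 2 on each side of each bound. Those with groups apart, and further members of the germline list and copy pairs, were added after their values were seen. Some islands that the rule names are not reported here.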

Additional observations from a re-analysis of the deposited data

How the results depend on the processing

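Of the alternatives tried, the number of islands moved most with the bounds, to 212 at 30% to 70% and 101 at 40% to 60%. It was 430 and 297 at a lowest coverage of 10 and 50, 391 with reads in at least 3 mice of each group, and 316 without near-identical copies, an alternative chosen after seeing the data. Leaving out the lowest or the highest control mouse of each island gave 406 and 346, of which 366 and 326 were among the 383. The share inside 20% to 80% in amphetamine mice stayed between 84.2% and 87.2%, and the number inside in every mouse was 51 without copies and 65 at a coverage of 50, against 74. Imprinted loci held 17 of the islands by overlap alone and 20 within 50000 bp, against 18.

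Against 0 calls by limma, an unadjusted p-value under 0.05 gave 27 for treatment and 31 for sex, or 17 and 14 with a variance trend (chosen after seeing the data), and the sex fit with X and Y gave 1. An adjusted p-value under 0.1, the trend alone and a coverage of 20 in every mouse left 0 members called. The labels pair no saline mouse with an amphetamine mouse, so no paired analysis was made. Because the deposited columns are group summaries, which carry no replicate, no single mouse could be left out of limma. Low coverage limits the precision of single values, and its part in the spans was not tested.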

Other observations

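On the X chromosome, outside the autosomal islands of the report, 48 of 271 islands with the same coverage and reads in all mice had a control mean from 20% to 80%, with a median mean of 37.6% in females and 7.77% in males. On the Y chromosome it was 5 of 11, with a median of 70.6% in males and of 66.4% for reads placed there in females.

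Partially methylated autosomal islands made up 5.21% of the covered islands on chromosome 10 and 5.12% on chromosome 7, and 0.817% on chromosome 16 and 0.994% on chromosome 1. A stretch of chromosome 10 from 79675403 to 81978995 bp held 18 of them among 124 covered islands, 4 with a near-identical copy. Among the 74 islands within 20% to 80% in every mouse, 45 (60.8%) held TGCCGC or its reverse complement. The share was 45.2% of all 383 and 53.2% of all 12280 covered islands. The median length of the 74 was 540.5 bp, against 426 bp in the 383 and 620 bp in all covered islands. Per kilobase there were 1.53 hexamers in the 74, 1.33 in the 383 and 1.28 in all covered islands.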
